A study of Mus musculus with 6 samples.

Results

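The genes described here encode 10 amino acid transporters of the plasma membrane. They were taken by gene symbol from the 54532 genes listed for the series, and the choice was made with earlier results of these data known. They are Slc7a11, Slc7a5 and their partner Slc3a2, the cationic amino acid transporters Slc7a1 and Slc7a3, the neutral amino acid exchangers Slc1a4 and Slc1a5, the system A carriers Slc38a1 and Slc38a2, and the glycine transporter Slc6a9. RNA was sequenced from N2a cells, an established mouse neuroblastoma line (strain given as C57BL/6 in the labels), in 6 libraries. The study's methods name C57BL/6 for mice and primary cortical neurons and give no strain for N2a cells. The control group, si-NC, consisted of 3 libraries from cells that received a negative control siRNA. The other group, si-circRtn4, consisted of 3 libraries from cells that received a single siRNA against circRtn4, a circular RNA made from exons of Rtn4. All 6 libraries came from the same cell line. The labels name only growth medium (MEM with fetal bovine serum), whereas the study's general methods also describe retinoic acid medium, so whether the cells were differentiated is not known. Nothing states that the libraries of a group came from separate cultures, and p-values therefore measure the spread between these libraries. The table lists genes, and circRtn4 was matched to no row of it, so no level of circRtn4 is given.

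Amino acids cross the plasma membrane through solute carriers, among them exchangers, carriers driven by the sodium gradient, and the cationic amino acid transporters, which need no sodium and follow the membrane potential. Slc7a5 (LAT1) and Slc7a11 (xCT) are light chains that reach the surface bound to the heavy chain Slc3a2 (4F2hc). With it, LAT1 exchanges large neutral amino acids such as leucine, and xCT takes up cystine in exchange for glutamate and so supplies cysteine for glutathione. Many of these genes are known targets of ATF4, the transcription factor of the integrated stress response, which binds sites close to their starts. In neuroblastoma, Slc7a5, Slc3a2 and Slc1a5 are known for high levels in cells with active MYC or MYCN.

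Short stretches of genome sequence are shown first because known ATF4 elements contain the letters TGATGNAA. These letters were searched for on both strands of RefSeq promoter windows (GRCm38.p6, 250 bases before to 50 after each gene's start). Windows were matched for 6 of the 10 genes, namely Slc7a11, Slc3a2, Slc7a1, Slc1a4, Slc38a2 and Slc6a9. The letters were found in 2 of these 6, Slc7a11 and Slc1a4, and in 3.97% of all 32851 windows. The Slc7a11 window held 2 non-overlapping matches on opposite strands. Among the 8546 protein-coding genes tested that had a window, 2.67% held a match and 7 genes (0.0819%) held at least 2. The stretches lie at chr3:50443638-50443694 (minus strand, 81 to 25 bases before the start of Slc7a11) and at chr11:20332699-20332728 (minus strand, across the start of Slc1a4). Both are written 5′ to 3′ on the strand of the gene, with the matches in capitals:
Slc7a11: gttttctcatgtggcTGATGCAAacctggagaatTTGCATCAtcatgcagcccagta
Slc1a4: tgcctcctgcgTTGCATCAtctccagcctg
A match describes letters in this window and not binding, which was not measured in these libraries. Sequence outside the windows, such as introns, was not searched, so a window without a match does not show that the gene lacks the letters.

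The second set of sequences concerns the small RNAs of the study. The siRNA is listed in the study's materials as a strand of 19 bases. Which strand is loaded was not stated, and the guide was taken as the reverse complement. The seeds, bases 2 to 8, are in capitals, and miR-24-3p, which the series title names as a partner of circRtn4, is from RefSeq:
si-circRtn4 guide: aAAAGGGUcucaucugaag
mmu-miR-24-3p: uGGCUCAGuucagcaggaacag
Matches to these seeds, 7 bases long (ACCCTTT for the guide, CTGAGCC for miR-24-3p), were counted in annotated 3′ UTRs of GENCODE M21, which were found for all 10 transporters. A guide site was present in 4 of the 10 (Slc3a2, Slc7a1, Slc1a5 and Slc38a1), against 12.5% of 10688 genes, and none of the sites was followed by A. The median 3′ UTR was 1988 bases in the transporters and 1170 bases in these genes. Among the transporters with a site, the 3′ UTR held 841 bases in Slc3a2, 535 in Slc1a5, 5030 in Slc7a1 and 5293 in Slc38a1. The part of UTR length in the count of sites was not tested. The sites are shown with 8 bases on each side and lie in the last exon, at chr19:8706954-8706960, chr5:148327568-148327574, chr7:16798050-16798056 and chr15:96574844-96574850 (GRCm38), on the minus strand except for Slc1a5:
Slc3a2: caagacaaACCCTTTgcttcctt
Slc7a1: catccaccACCCTTTtgaaaaaa
Slc1a5: agttctctACCCTTTtaaaggca
Slc38a1: ccgcctctACCCTTTgccctaac
A miR-24-3p site was present in 1 of the 10, Slc7a1 (ctgctccaCTGAGCCggggaata, chr5:148328249-148328255, minus strand), against 19.6% of genes.

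Values are FPKM, which divides the fragments counted on a gene by the gene's length and the library's depth. The libraries held 13541198 to 15122063 reads on genes, as recovered from the FPKM steps. A gene was tested if its mean over the 6 libraries was at least 1 FPKM, which kept 12749 genes and all 10 transporters. Fold changes are of si-circRtn4 relative to si-NC on the log2(FPKM + 1) scale, and the test was limma with Benjamini-Hochberg adjustment over all genes tested (called at an adjusted p under 0.05). The markers of noradrenergic neuroblasts were present for all 12 genes of the list, none of them at 0. Of these 12, 6 were called lower and 0 higher. Dbh and Th, 2 of the 6, had means under 1 FPKM in si-circRtn4 and passed the filter through the si-NC libraries alone. The largest falls of the other 4 were those of Chgb (-1.86) and Chga (-1.57). The summed FPKM of the 12 was 2545 to 2798 in si-NC and 1103 to 1578 in si-circRtn4. Of 14 markers of fibroblasts, glia, endothelial and blood cells, 2 were high enough to be tested, Aqp4 was at 0 in every library, and the summed FPKM was 8.06 to 9.88 and 9.22 to 13.9, respectively. Of these, Pdgfrb was called higher (0.92, adjusted p = 0.0316 in limma), a call that was lost with all detected genes and when any library other than si-NC 1 was left out. In bulk RNA, fewer cells of a type and less RNA per cell cannot be told apart, and the part of these marker shifts in the transporter values was not tested.

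Among the transporters, 1 gene rose and 0 fell. This gene was Slc7a11, and the background was 4.36% of the genes tested called higher and 4.82% called lower. The fold change was positive for 9 of the 10, and the median was 0.22 over the transporters and 0.0020 over all genes tested. At an unadjusted p under 0.05 in limma, 5 transporters were higher and 0 lower, and 13.1% of all genes were higher. Limma-voom on the recovered reads called 2 transporters higher and 0 lower, against 7.08% of genes called higher. After rescaling to TPM 2 were called higher, against 7.62% of genes, and with all detected genes 0 were, against 0.738% of genes. The 3 si-circRtn4 libraries lay above the 3 si-NC libraries without overlap for 4 transporters (Slc7a11, Slc7a3, Slc1a4 and Slc38a1), against 16.2% of genes. Replicate numbers paired the libraries in a check over all genes. Within these pairs, 8 transporters were higher in all 3, against 28.4% of genes. With the number as a block in the fit, 2 transporters passed (Slc7a11 and Slc7a3), against 9.29% of genes called higher, and 4 more had an adjusted p between 0.05 and 0.1. The calls over all genes were 47.5% higher as FPKM and 71.2% higher after rescaling to TPM.

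**Figure D1:**
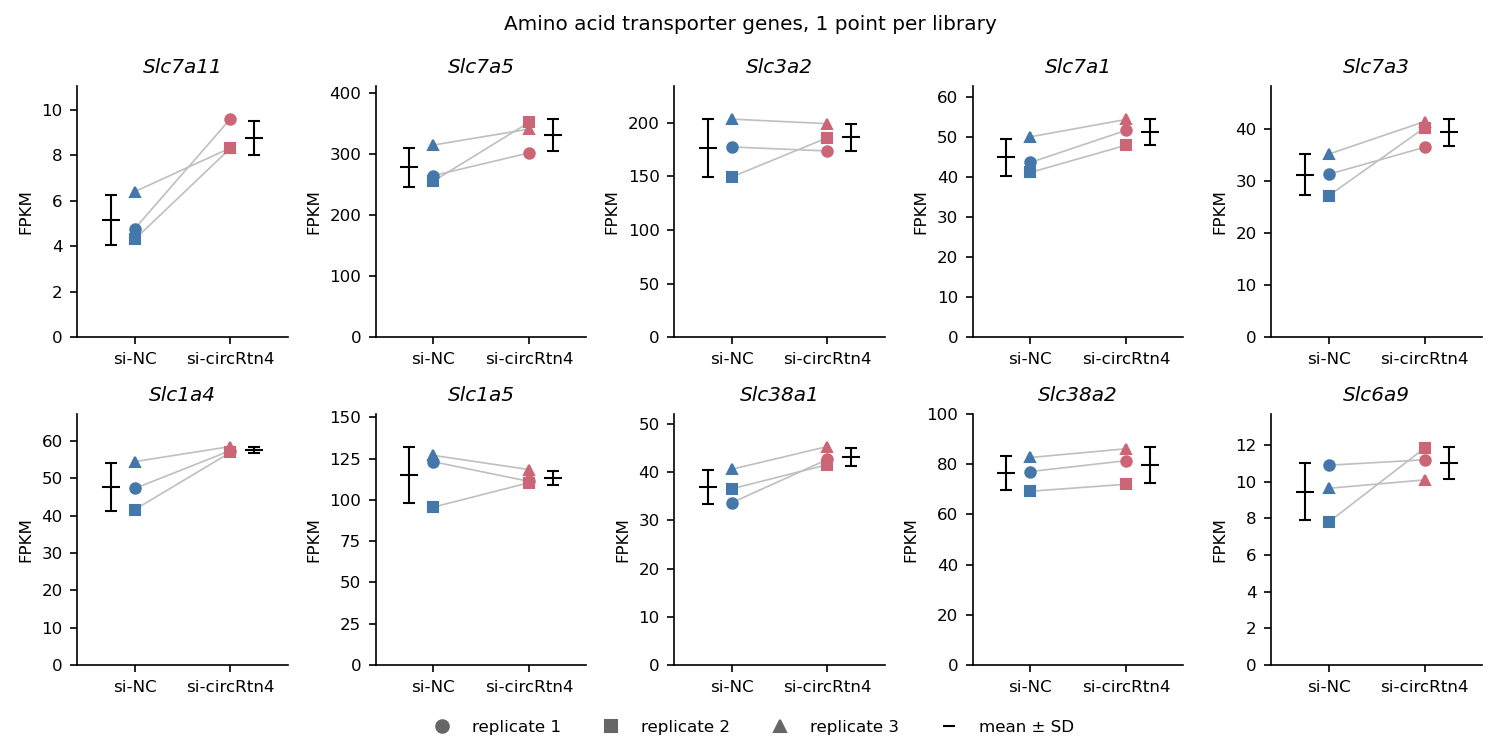
FPKM of the 10 transporter genes in each library (vertical axis, linear from 0, with its own scale in each panel). Circles, squares and triangles are replicates 1, 2 and 3, grey lines join libraries with the same number, and black bars give the mean ± SD of 3 libraries. The groups do not overlap for Slc7a11, Slc7a3, Slc1a4 and Slc38a1.

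Slc7a11 (ENSMUSG00000027737, chr3:49892526-50443614, minus strand) encodes the cystine and glutamate exchanger xCT. It was at 4.77, 4.30 and 6.41 FPKM in si-NC replicates 1, 2 and 3 and at 9.61, 8.32 and 8.33 FPKM in si-circRtn4 replicates 1, 2 and 3. Every si-circRtn4 library was above every si-NC library, with si-NC 3 the closest of the controls. The means were 5.16 ± 1.10 and 8.75 ± 0.745 FPKM (SD, n = 3 each), which is 1.70-fold higher in si-circRtn4. The log2 fold change was 0.67 (standard error 0.13, 95% interval 0.37 to 0.98, adjusted p = 0.0224 in limma). The exact permutation test (two-sided) of this difference returned p = 0.1, the smallest value that 3 libraries against 3 allow. Within the pairs the log2 ratio was 0.88, 0.81 and 0.33, so that the third pair moved least. Between 864 and 1904 reads stood behind each value.

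The call of Slc7a11 depended on which library was left out. It was lost when any library other than si-NC 3 was left out, with log2 fold changes of 0.57 to 0.81 and adjusted p between 0.0139 and 0.0758 over these 6 fits. Without si-NC 1 the adjusted p was 0.0590, without si-NC 2 it was 0.0731, and without si-circRtn4 1, 2 or 3 it was 0.0758, 0.0662 or 0.0539 (limma). It was also lost when all 28442 genes above 0 in any library were tested (adjusted p = 0.0879, with 0.00211 to 0.0879 over all alternatives). The gene length of 13922 bases behind the FPKM exceeds the longest coding transcript of GENCODE M21 (9223 bases). Genes that overlap the locus held at most 5 reads in any library.

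Slc7a5 (ENSMUSG00000040010, chr8:121881150-121907694, minus strand) encodes LAT1, the exchanger of leucine and other large neutral amino acids. It was at 265, 256 and 315 FPKM in si-NC and at 302, 352 and 341 FPKM in si-circRtn4. The ranges overlapped, because si-NC 3 was above si-circRtn4 1, but each si-circRtn4 library was above the si-NC library of the same number. The means were 279 ± 31.9 and 332 ± 26.3 FPKM (SD, n = 3 each), a difference of 19.1%. The log2 fold change of 0.25 (standard error 0.11, 95% interval 0.0046 to 0.50) was not past the threshold (adjusted p = 0.186 in limma). These were the highest levels of the 10 genes, with 13673 to 20321 reads per library.

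Slc3a2 (ENSMUSG00000010095, chr19:8706882-8723369, minus strand) encodes the heavy chain 4F2hc that both light chains need. It was at 177, 149 and 203 FPKM in si-NC and at 173, 186 and 199 FPKM in si-circRtn4. The si-circRtn4 values lay inside the si-NC range, and only the second pair was higher in si-circRtn4. The means were 177 ± 27.0 and 186 ± 12.7 FPKM (SD, n = 3 each). Its log2 fold change was 0.08 (95% interval -0.20 to 0.37, adjusted p = 0.718 in limma), and without si-NC 2 it was -0.03.

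The ratio of light to heavy chain was taken within each library, where the scaling of the library has little effect. The log2 ratio of Slc7a5 to Slc3a2 (each as FPKM + 1) was 0.58, 0.77 and 0.63 in si-NC and 0.80, 0.92 and 0.78 in si-circRtn4. The difference of the means was 0.17, the groups did not overlap, and the difference within pairs was steady (SD 0.043 over 3 pairs). The log2 ratio of Slc7a11 to Slc3a2 was -4.95, -4.82 and -4.79 in si-NC and -4.04, -4.33 and -4.42 in si-circRtn4, a difference of 0.59, again without overlap. Within pairs this difference varied more (SD 0.284 over 3 pairs). For both ratios the two-sided exact permutation test gave p = 0.1, and 0.167 after adjustment over the 5 ratios compared.

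Slc3a2 also serves other light chains. The summed FPKM of Slc7a5, Slc7a6, Slc7a7, Slc7a8, Slc7a10 and Slc7a11, divided by that of Slc3a2, was 1.72, 1.97 and 1.76 in si-NC and 1.98, 2.12 and 1.93 in si-circRtn4. The groups overlapped in this ratio, since si-NC 2 was above si-circRtn4 3. Slc7a5 made up 86.7% to 87.9% of the light chain sum in si-NC and 87.9% to 89.5% in si-circRtn4. Slc7a11 made up 1.56%, 1.46% and 1.79% in si-NC and 2.80%, 2.11% and 2.17% in si-circRtn4. The second most abundant light chain was Slc7a6 (y+LAT2, an exchanger of cationic and neutral amino acids), at 33.5, 32.4 and 35.3 FPKM in si-NC and at 29.0, 31.2 and 32.9 FPKM in si-circRtn4. It was not called (log2 fold change -0.12, adjusted p = 0.376 in limma), and Slc7a10 was at 0 in all 6 libraries.

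**Figure D2:**
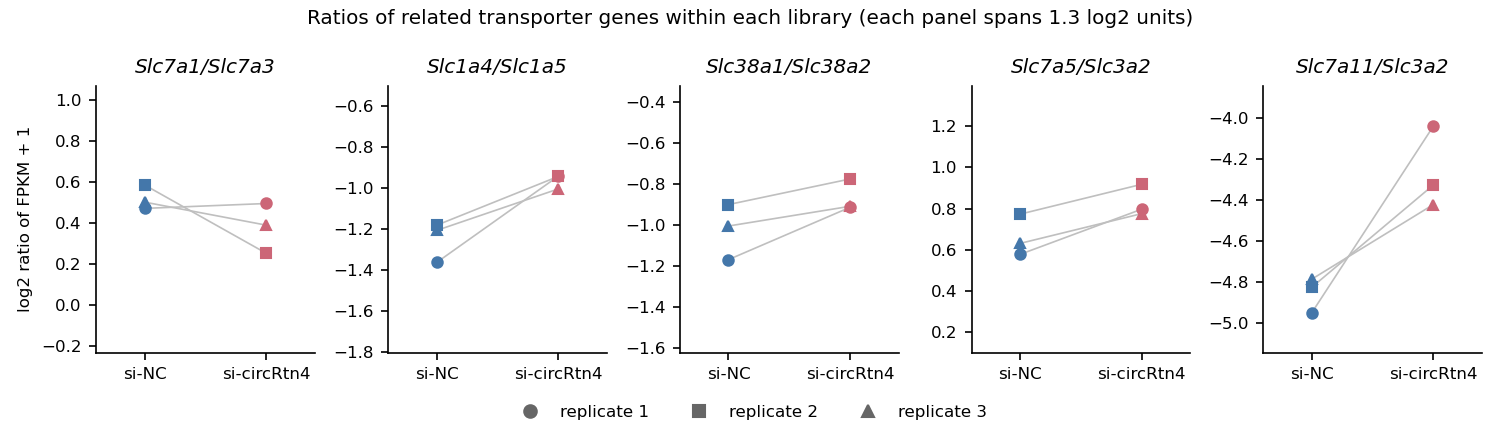
Log2 ratio of FPKM + 1 of 5 pairs of related genes within each library (vertical axis, 1.3 log2 units in every panel). Circles, squares and triangles are replicates 1, 2 and 3, and grey lines join libraries with the same number. The groups do not overlap for Slc1a4/Slc1a5, Slc7a5/Slc3a2 and Slc7a11/Slc3a2.

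Slc7a1 (ENSMUSG00000041313, chr5:148327410-148399904, minus strand) encodes CAT1, a carrier of arginine, lysine and ornithine. It was at 43.6, 41.1 and 50.05 FPKM in si-NC and at 51.7, 47.9 and 54.4 FPKM in si-circRtn4. Each pair was higher in si-circRtn4, but si-NC 3 was above si-circRtn4 2. The means were 44.9 ± 4.59 and 51.3 ± 3.23 FPKM (SD, n = 3 each). On the log2 scale the difference of 0.19 (95% interval -0.03 to 0.41) was not past the threshold (adjusted p = 0.252 in limma).

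Slc7a3 (ENSMUSG00000031297, chrX:101079210-101086020, minus strand) encodes CAT3, the cationic amino acid transporter known from neurons. It was at 31.2, 27.1 and 35.1 FPKM in si-NC and at 36.4, 40.2 and 41.3 FPKM in si-circRtn4. The groups did not overlap, and the lowest si-circRtn4 library was close to the highest si-NC library. The means were 31.2 ± 3.98 and 39.3 ± 2.57 FPKM (SD, n = 3 each), 26.1% higher in si-circRtn4. The log2 fold change was 0.33 (standard error 0.11, 95% interval 0.09 to 0.58), with an adjusted p of 0.0960 in limma. With replicate number as a block the adjusted p was 0.0447, and over all alternatives it lay between 0.0275 and 0.260, also passing as TPM (0.0327) and in limma-voom on the recovered reads (0.0275). The log2 ratio of Slc7a1 to Slc7a3 differed by -0.14 between the groups, which overlapped (two-sided exact permutation test, p = 0.2), and by -0.08 without si-circRtn4 2.

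Slc1a4 (ENSMUSG00000020142, chr11:20302180-20332713, minus strand), whose start carries a TGATGNAA match shown above, encodes ASCT1, an exchanger of serine, alanine and threonine. It was at 47.3, 41.6 and 54.4 FPKM in si-NC and at 57.4, 56.9 and 58.5 FPKM in si-circRtn4. The si-circRtn4 libraries lay close together and above all controls, of which si-NC 3 was nearest. The means were 47.8 ± 6.44 and 57.6 ± 0.810 FPKM (SD, n = 3 each). The log2 fold change was 0.27 (standard error 0.10, 95% interval 0.04 to 0.51) and was not past the threshold (adjusted p = 0.142 in limma).

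Slc1a5 (ENSMUSG00000001918, chr7:16781340-16798274, plus strand) encodes ASCT2, an exchanger of glutamine and other neutral amino acids. It was at 123, 95.6 and 127 FPKM in si-NC and at 111, 110.4 and 118 FPKM in si-circRtn4. All si-circRtn4 values lay inside the si-NC range. The means were 115 ± 17.1 and 113 ± 4.38 FPKM (SD, n = 3 each). The log2 fold change was -0.01 (95% interval -0.28 to 0.26, adjusted p = 0.960 in limma), and it was 0.08 as TPM. The log2 ratio of Slc1a4 to Slc1a5, which share the exchange of small neutral amino acids, was -1.36, -1.18 and -1.21 in si-NC and -0.94, -0.94 and -1.004 in si-circRtn4. This ratio differed by 0.29 without overlap (two-sided exact permutation test, p = 0.1, and 0.167 adjusted over 5 ratios).

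Slc38a1 (ENSMUSG00000023169, chr15:96571418-96642913, minus strand) encodes SNAT1, a sodium-coupled carrier that supplies glutamine to neurons. It was at 33.7, 36.6 and 40.6 FPKM in si-NC and at 42.7, 41.6 and 45.4 FPKM in si-circRtn4. The groups did not overlap. The means were 37.0 ± 3.49 and 43.2 ± 1.94 FPKM (SD, n = 3 each). Its log2 fold change of 0.22 (95% interval 0.02 to 0.43) was not past the threshold (adjusted p = 0.160 in limma).

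Slc38a2 (ENSMUSG00000022462, chr15:96687392-96699730, minus strand) encodes SNAT2, the system A carrier known to be induced when amino acids are scarce. It was at 77.1, 69.2 and 82.7 FPKM in si-NC and at 81.4, 72.0 and 86.1 FPKM in si-circRtn4. Replicate 2 was lowest and replicate 3 highest in both groups, and each pair was slightly higher in si-circRtn4. The means were 76.3 ± 6.76 and 79.8 ± 7.20 FPKM (SD, n = 3 each), with a log2 fold change of 0.06 (95% interval -0.17 to 0.29, adjusted p = 0.741 in limma). The log2 ratio of Slc38a1 to Slc38a2 differed by 0.16 between the groups and overlapped (two-sided exact permutation test, p = 0.3), and by 0.09 without si-NC 1.

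Slc6a9 (ENSMUSG00000028542, chr4:117834506-117875198, plus strand) encodes the glycine transporter GlyT1. It was at 10.9, 7.80 and 9.63 FPKM in si-NC and at 11.2, 11.8 and 10.1 FPKM in si-circRtn4. The groups overlapped through si-NC 1. The means were 9.44 ± 1.56 and 11.03 ± 0.877 FPKM (SD, n = 3 each), with a log2 fold change of 0.21 (95% interval -0.07 to 0.49, adjusted p = 0.317 in limma). Without si-NC 2 it was 0.10. B4galt2 overlaps this locus on the opposite strand at 5.79 to 7.77 FPKM. Whether the authors' counting used the strand is not given in the sources used here, so reads in the overlap cannot be told apart.

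**Figure D3:**
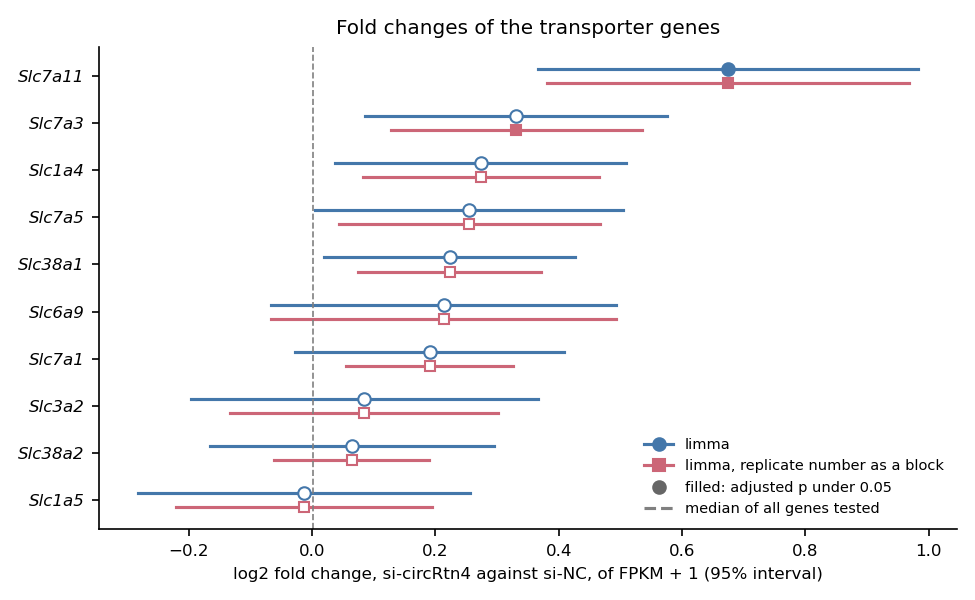
Log2 fold change of FPKM + 1, si-circRtn4 against si-NC, with 95% intervals (horizontal axis) for the 10 transporter genes, sorted by size, from limma without (circles) and with (squares) replicate number as a block. Filled symbols have an adjusted p under 0.05, which only Slc7a11 reaches in both fits and Slc7a3 in the fit with the block, and the dashed line is the median of all genes tested.

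The libraries of a group differed in a way that was common to most of the transporters. Among the si-NC libraries, replicate 2 was lowest for 9 of the 10 genes and replicate 3 highest for 9. Over all genes tested, replicate 2 was lowest for 29.5% and replicate 3 highest for 34.1%. Among the si-circRtn4 libraries, replicate 3 was highest for 7 of the 10, against 33.4% of genes. The sum of the 10 FPKM values was 814, 728 and 924 in si-NC and 877, 927 and 963 in si-circRtn4, so that si-NC 3 lay within the si-circRtn4 range. Without si-NC 2, 7 of the 10 fold changes were positive, the median was 0.16, and 0 genes were called.

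The order of the FPKM levels was the same in both groups. From the highest to the lowest mean it ran Slc7a5, Slc3a2, Slc1a5, Slc38a2, Slc1a4, Slc7a1, Slc38a1, Slc7a3, Slc6a9 and Slc7a11. The ranges of neighbours in this order overlapped only in si-NC, for Slc1a4 with Slc7a1 and for Slc38a1 with Slc7a3. Slc7a5, Slc3a2 and Slc1a5 together made up 66.9% to 69.9% of the summed FPKM of the 10 genes. Their means ranked at the 99.1, 98.4 and 97.2 percentiles of all genes tested, whereas Slc6a9 was at 56.5 and Slc7a11 at 44.4. FPKM divides by the gene length of the table, which was up to 2.37 times the longest coding transcript (Slc38a1). With that transcript's length in its place, Slc38a1 moved from rank 7 to rank 5, at 87.7 ± 8.29 in si-NC and 102 ± 4.60 in si-circRtn4 (SD, n = 3 each). Slc7a5 stayed at rank 1 and Slc7a11 at rank 10, at 7.79 ± 1.66 and 13.2 ± 1.12.

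The 4 transporters with a guide seed site had log2 fold changes between -0.01 and 0.22, with a median of 0.14. The 6 without a site lay between 0.06 and 0.67, with a median of 0.26. These values are a description of 10 genes, and the difference was not tested.

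The genes most like 3 of the transporters over the 6 libraries were taken by Pearson's r of log2(FPKM + 1) among 10782 protein-coding genes. The 6 points share their 2 groups, so these values describe the likeness only. For Slc7a11 the closest were Strada (r = 0.997), Optn (0.993) and Zfp566 (0.993). For Slc7a5 they were Zc3hc1 (0.985), Cyp4f16 (0.981) and Rbm22 (0.980), and among the transporters it was Slc7a3 (0.956, rank 36). For Slc3a2 they were Galns (0.967), Tmbim1 (0.944) and Herpud1 (0.936), and among the transporters it was Slc1a5 (0.855, rank 57). The r of Slc3a2 with its light chains was 0.760 for Slc7a5 and 0.526 for Slc7a11.

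Other transporters of amino acids were taken from lists by their membrane. For these and the later lists, the shares over all genes tested were 4.36% called higher and 4.82% called lower in limma. The shares higher were 7.08% in limma-voom, 9.29% with replicate number as a block and 13.1% at an unadjusted p under 0.05. Of 32 other plasma membrane transporters, 9 were at 0 in every library and 8 could be tested, with 0 called higher and 1 lower. The gene called lower was Slc38a5 (SNAT5, a glutamine carrier), at 1.82 ± 0.397 FPKM in si-NC and 0.745 ± 0.0892 FPKM in si-circRtn4 (SD, n = 3 each). Its log2 fold change was -0.68 (adjusted p = 0.0323 in limma), but it passed the filter through the si-NC libraries alone, so the call is no support for a lower list. Without that filter, with all detected genes, it was not called, and the call was also lost whichever of the 6 libraries was left out. Of the 8 genes, 0 were higher at an unadjusted p under 0.05 or in limma-voom, and their median was 0.05. Of 12 listed transporters of lysosomes and vesicles, 7 were tested, with 0 called higher and 2 lower. As TPM, as TPM without Gm23935 and after quantile normalization the counts were 1 higher and 1 lower, with Slc36a1 no longer called, and with all detected genes neither gene was called. Slc7a14, which is known from lysosomes, fell from 35.5 ± 5.61 to 17.8 ± 4.46 FPKM (log2 fold change -0.97, adjusted p = 0.0174 in limma). Slc36a1 (PAT1), a proton-coupled carrier of small neutral amino acids, fell from 42.9 ± 5.32 to 30.8 ± 2.06 FPKM (-0.46, adjusted p = 0.0365 in limma). The median of the 7 was 0.14. At an unadjusted p under 0.05, 2 were higher and 2 lower, 1 was called higher in limma-voom, and 2 were called higher with replicate number as a block. Without si-circRtn4 1 or si-circRtn4 2, 0 of the falls were called, and 1 without si-NC 1, si-NC 2 or si-circRtn4 3. Of 12 mitochondrial carriers, 9 were tested and 0 were called, with a median of 0.11. At an unadjusted p under 0.05, 1 was higher and 1 lower, limma-voom called 1 higher, and the block gave 2 higher and 1 lower. The largest difference was that of the ornithine carrier Slc25a15, at -0.31.

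**Figure D4:**
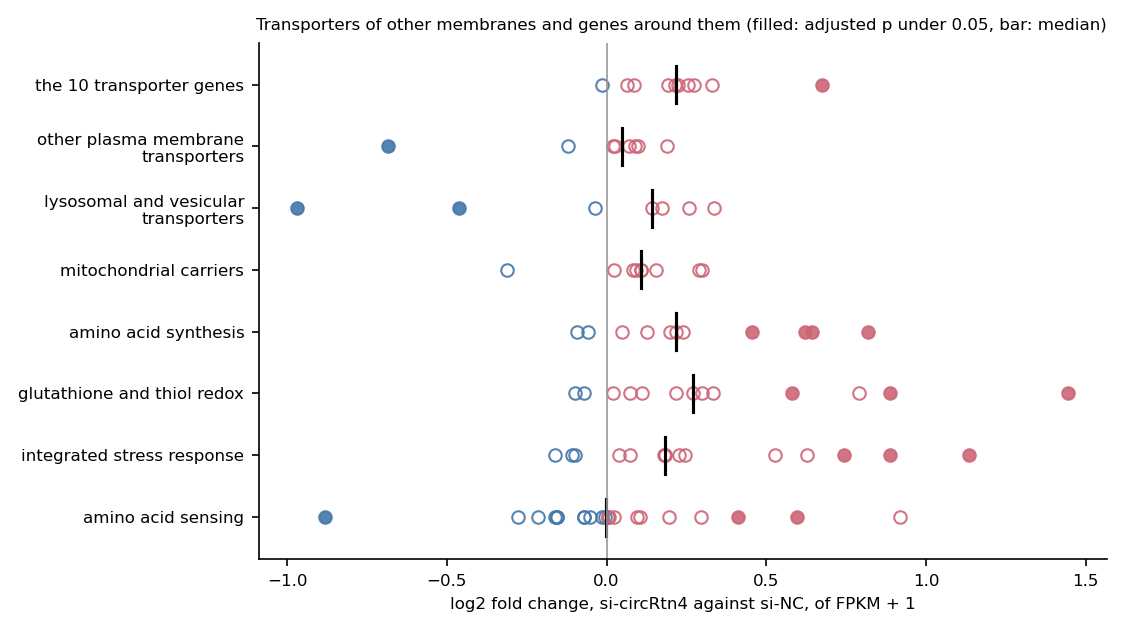
Log2 fold change of FPKM + 1, si-circRtn4 against si-NC (horizontal axis), of the 10 transporter genes and of the tested genes of 7 lists around them, 1 point per gene. Filled points have an adjusted p under 0.05 in limma, red points are above 0 and blue points below, and black bars are medians. The filled points of the other transporters lie below 0 (Slc7a14, Slc36a1 and Slc38a5, the last of which passed the filter through the si-NC libraries alone), and those of the synthesis, glutathione and stress response lists above 0.

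Genes of amino acid synthesis and of glutathione and redox defence were described in the same fit. Of 11 genes for the synthesis of serine, glycine, asparagine, proline and cysteine, 4 rose and 0 fell, with a median of 0.22, and limma-voom and an unadjusted p under 0.05 gave the same counts. The count of rises was 1 with all detected genes. It was also 1 without si-NC 1, si-NC 2 or si-circRtn4 2, and 2 without si-circRtn4 1 or si-circRtn4 3. Cth, which makes cysteine from cystathionine, rose from 20.8 ± 5.88 to 36.7 ± 3.80 FPKM (0.82, adjusted p = 0.0325 in limma). Pycr1, of proline synthesis, rose by 0.64 (adjusted p = 0.00930 in limma), and Phgdh, the first enzyme of serine synthesis, rose from 135, 127 and 161 FPKM in si-NC to 193, 231 and 227 FPKM in si-circRtn4 (0.62, adjusted p = 0.0193 in limma). Of 13 genes of glutathione synthesis and thiol and oxidative stress defence, 3 rose and 0 fell, with a median of 0.27. With the block, in limma-voom and at an unadjusted p under 0.05, 7 were higher and 0 lower, against 9.29%, 7.08% and 13.1% of all genes higher. With all detected genes 1 was called higher, against 0.738% of genes, and 2 were without si-NC 2 or si-circRtn4 1. Srxn1 (sulfiredoxin) rose from 13.1 ± 1.84 to 38.7 ± 12.3 FPKM (1.45, adjusted p = 0.0117 in limma), Hmox1 (heme oxygenase) by 0.89 and Txnrd1 (thioredoxin reductase) by 0.58. Srxn1, Hmox1 and Txnrd1 act on peroxiredoxins, heme and thioredoxin and are not glutathione synthesis enzymes.

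Regulators of these transporters were the last group. Of 15 genes of the integrated stress response, 3 rose and 0 fell, with a median of 0.18. Limma-voom called 5 higher and 0 lower, against 7.08% of all genes higher. At an unadjusted p under 0.05 there were 6 higher and 0 lower, against 13.1% of all genes higher. With all detected genes 1 was called higher, against 0.738% of genes. Without si-NC 2, si-NC 3, si-circRtn4 1 or si-circRtn4 2 the count was 2. Ppp1r15a (GADD34, which returns the response to baseline) rose from 31.7 ± 4.83 to 71.0 ± 12.4 FPKM (1.14, adjusted p = 0.00734 in limma). Atf3 rose by 0.89 and Cebpb by 0.74 on the log2 scale, both transcription factors. Atf4 itself was at 392, 350.0 and 441 FPKM in si-NC and at 414, 468 and 457 FPKM in si-circRtn4, ranges that overlapped (log2 fold change 0.18, adjusted p = 0.332 in limma). Of 12 known regulators of amino acid transporters, a list that also holds Atf4, 9 were tested and 0 were called, with a median of 0.05. The largest difference there was that of Mycn, at 14.0 ± 1.74 FPKM in si-NC and 22.0 ± 4.89 FPKM in si-circRtn4 (SD, n = 3 each), which differed by 0.60 on the log2 scale. Nfe2l2 (NRF2), also on this list, was at 11.6, 10.3 and 11.5 FPKM in si-NC and at 15.8, 13.5 and 13.5 FPKM in si-circRtn4, without overlap. Its log2 fold change was 0.33 (adjusted p = 0.0598 in limma and 0.0235 with replicate number as a block). At an unadjusted p under 0.05 and in limma-voom, 3 regulators were higher and 0 lower, and with the block 2 were called higher and 2 lower.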

How the data were processed

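RNA of 3 si-NC and 3 si-circRtn4 libraries of N2a cells was analysed, and groups and replicate numbers were taken from the sample labels. Expression was deposited as FPKM, 1 value per gene and library, beside coordinates and gene lengths. The submitters' processing notes name Bowtie 0.12.2 and the builds mm8 and mm9, but start and end of 98.3% of the genes equal those of GENCODE M21, which places the coordinates on GRCm38. The counting tool, the annotation and the strand setting are not given in the sources used here. Another 6 columns of other samples were not used. After removal of the gene length, 100% of the FPKM values were whole numbers of reads (within 0.01).

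The limma fit was first run on simulated reads drawn independently for each library, which cannot show how it performs on these libraries. The two-sided test was that of limma 3.58.1 (lmFit, then eBayes with a trend) in R 4.3.3 on log2(FPKM + 1), restricted to genes averaging 1 FPKM or more. This scale understates the change of genes at low FPKM. Exact permutation tests compared 3 libraries with 3. Whether replicate numbers pair the libraries was checked on all genes. Same-numbered libraries deviated together from their groups (r = 0.331, 0.19 and 0.226 over genes), so the numbers were used as a block in a further fit, although no label says what they mark. Sequences and sites were counted with Python 3.11.15 and pandas 2.3.3. Alternatives were a pseudocount of 0.1, all detected genes, TPM with and without Gm23935 (13.5% to 20.7% of the FPKM sum), quantile normalization, limma-voom on the recovered reads, the block, and leaving out each library. Named genes were the 10 transporters, up to 3 called genes with the largest change per list (otherwise the largest change), the 3 genes most like Slc7a11, Slc7a5 and Slc3a2, marker genes, and genes overlapping a transporter. Slc7a6, Slc7a10, Atf4, Nfe2l2 and Castor1 were named after their values had been seen. The transporters and the lists were chosen with earlier results of these data known.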

Additional observations from a re-analysis of the deposited data

How the results depend on the processing

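Of 130 fold changes of the transporters under 13 alternatives each, 112 kept their direction and their side of the threshold. Slc7a11 kept its call in 7 of 13 alternatives. The count of transporters called higher, 1, was 0 with all detected genes and 2 as TPM, in limma-voom and with the replicate block, where the share of all genes called higher also moved, from 4.36% to 0.738%, 7.62%, 7.08% and 9.29%. It was 0 to 1 when a library was left out. Over 8 lists of other transporters and pathway genes, 12 calls were higher and 4 lower, against 4.36% and 4.82% of all genes tested. The lists held 8, 7, 9, 22, 15, 11, 13 and 9 tested genes, with Atf4 and Nfe2l2 listed more than once. The higher calls numbered 4 with all detected genes, 22 as TPM, 22 in limma-voom, 24 with the replicate block and 6 to 10 without 1 library (6 without si-NC 2, 7 without si-circRtn4 1). The lower calls numbered 1 with all detected genes, 7 with the replicate block and 1 to 3 without 1 library. They numbered 2 without si-NC 1, si-NC 2 or si-circRtn4 3, and 1 without si-circRtn4 1 or 2. Over all genes, 261 of 28442 were called lower with all detected genes and 1243 of 12749 with the block. Without 1 library, 163 to 407 of the 12749 genes were called higher and 217 to 419 lower. With all detected genes more tests shared the adjustment, and the trend of eBayes was fitted over more genes. Leaving out a library left fewer libraries. The cause of these moves was not tested in any setting. The block changed no call of a transporter other than that of Slc7a3.

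Slc1a5 turned to a log2 fold change of 0.0795 as TPM, 0.00877 as TPM without Gm23935, 0.0270 after quantile normalization and 0.00952 in limma-voom, and lay between -0.141 and 0.0617 without 1 library. Slc3a2 lay between -0.0302 and 0.191, and Slc38a2 between -0.00341 and 0.136, both negative only without si-NC 2. Slc6a9 lay between 0.0952 (without si-NC 2) and 0.312, and Slc1a4 between 0.180 (without si-NC 2) and 0.370. All 5 ratios stayed within 1 SD of the libraries in their 35 alternative values, although leaving out 1 library moved Slc7a1/Slc7a3 to -0.0768 and Slc38a1/Slc38a2 to 0.0865. The median standard error of the transporters, 0.11 on the log2 scale, limits which differences 3 libraries per group can show.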

Other observations

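Of 22 genes of amino acid sensing by mTORC1 (sensors, Rag GTPases and their regulators, and the mTORC1 subunits Mtor, Rptor and Mlst8), 2 rose and 1 fell in limma with Benjamini-Hochberg adjustment. Over all genes tested, 4.36% were called higher and 4.82% lower. The median log2 fold change of the 22 was -0.00092. Castor2, a relative of the arginine sensor Castor1, was at 7.35, 6.64 and 5.61 FPKM in si-NC and at 3.14, 3.00 and 3.08 FPKM in si-circRtn4. It fell by 0.88 on the log2 scale (adjusted p = 0.00364 in limma), and the groups did not overlap. Flcn (folliculin, an activator of the Rag GTPases) was at 10.7, 9.90 and 10.1 FPKM in si-NC and at 16.6, 16.0 and 15.2 FPKM in si-circRtn4, a log2 fold change of 0.59 (adjusted p = 0.00402 in limma). Rragc, a Rag GTPase subunit, was higher by 0.41 (adjusted p = 0.0210 in limma). The count of rises was 1 with all detected genes and without si-NC 1, si-NC 2, si-circRtn4 1 or si-circRtn4 3. With replicate number as a block, 4 genes of this list were called higher and 1 lower. In that fit 9.29% of all genes tested were called higher, and 1243 of 12749 lower.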
